A study of Mus musculus with 24 samples.

Results

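The subunits of oxidative phosphorylation were followed in the fasted livers of mice lacking Rab30, Cpt2 or both. The members are the protein-coding genes of the count table that lie on the mitochondrial chromosome, together with those whose symbols name a nuclear subunit of complexes I to V (Nduf, Sdh, Uqcr, Cox4 to Cox8 and Atp5 symbols). By this rule 99 of 54532 genes were members, of which 86 are encoded in the nucleus and 13 in mitochondria. By complex, the nuclear members comprised 36 genes of complex I, 4 of complex II, 8 of complex III, 20 of complex IV and 18 of complex V, and the mitochondrially encoded members 7, 0, 1, 3 and 2 genes. The nuclear count includes 1 second row for Atp5o, the supercomplex assembly factor Cox7a2l and the coupling factor Atp5s, and places Ndufa4 and Ndufa4l2 in complex IV.

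RNA-seq was made from the livers of 24 male C57BL/6J mice fasted for 24 h, 8 to 10 weeks old by the study's reporting summary, with 4 livers in each of 6 groups. Rab30KO mice lack exon 4 of Rab30, which encodes a Golgi-associated small GTPase, in the whole body, and Rab30 Ctrl are their wildtype littermates. Rab30L-/- and Cpt2L-/- mice carry floxed alleles deleted by Cre under the albumin promoter, which is active in hepatocytes, so liver cells in which that promoter is silent keep the genes. Cpt2 encodes carnitine palmitoyltransferase 2, which mitochondria need to oxidize long chain fatty acids. DKO mice lack both genes in the same way, and ff;ff mice carry the Rab30 and Cpt2 floxed alleles without Cre. The ff;ff mice are the control group used here for all 3 albumin-Cre genotypes. Per the labels they are littermates of the DKO mice, and no litter link to Rab30L-/- or Cpt2L-/- mice is labelled.

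Oxidative phosphorylation passes electrons from NADH through complex I, and from succinate through complex II, to ubiquinone, complex III, cytochrome c and complex IV, where oxygen is reduced. Complexes I, III and IV pump protons across the inner membrane, and complex V, the ATP synthase, uses the gradient to make ATP. Mitochondrial DNA encodes core membrane subunits, which are transcribed from both of its strands as long precursors and cut out of them. All other subunits, including every subunit of complex II, are transcribed in the nucleus and imported, so each complex except the second is assembled from the products of both genomes.

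Library totals ranged from 11801027 to 24497738 counts, and 92 members (79 nuclear, 13 mitochondrially encoded) passed the filter on low counts in each comparison. Whole-gene counts of the targeted genes did not follow every label: Cpt2 was counted at 126 ± 29.1 CPM (counts scaled to library size with TMM factors, SD, n = 4) in the libraries labelled Cpt2L-/- and at 134 ± 5.53 CPM in those labelled ff;ff, and Rab30 at 102 to 232 CPM in DKO, 10.2 to 26.5 in Rab30L-/-, 121 to 186 in Cpt2L-/-, 26.4 to 45.5 in ff;ff, 5.47 to 17.1 in Rab30KO and 6.53 to 29.8 CPM in Rab30 Ctrl. Cpt2 lay at 97.1 to 125 CPM in DKO and 169 to 271 CPM in Rab30L-/-. Reads outside the deleted exons are counted too, so these totals do not check the deletions, and each group name below stands for the libraries labelled so. Hepatocyte markers were abundant in every library, with summed levels of 45865 to 54494 CPM in Cpt2L-/-, 61310.3 to 73437 CPM in DKO, 77496 to 95755 CPM in Rab30L-/- and 97377 to 131582 CPM in ff;ff, whereas all 10 striated muscle and adipocyte markers averaged under 1 CPM. In bulk tissue, fewer cells of a type and less RNA per cell cannot be told apart.

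Levels of different genes can be set side by side only per length, and here the deposited FPKM values (fragments scaled by gene length and library size) serve for that. The median of the mean FPKM over 24 libraries was 2532 across the 13 mitochondrially encoded members and 43.1 across the 86 nuclear members. By these values the mitochondrial genes fell into an abundant and a scarce set. But for mt-Atp8, the scarce set consists of genes that a near-identical stretch of chromosome 1 repeats whole or nearly so. Whether their RNA is scarce in the livers was therefore not tested. mt-Co1, which holds the catalytic haems of complex IV, stood at 16506 ± 4065 FPKM (SD over 24 libraries) and mt-Cytb, the haem-bearing core of complex III, at 9927 ± 2349.9 FPKM. mt-Nd2, mt-Nd1, mt-Nd4, mt-Nd6 and mt-Nd5, core subunits of the membrane arm of complex I, lay between 2532 and 6369 FPKM. mt-Atp6, the proton channel subunit of complex V, was listed at 287 ± 186 FPKM, mt-Co2, which takes electrons from cytochrome c, at 209 ± 92.2 FPKM and mt-Co3 at 169.7 ± 115 FPKM. The lowest were mt-Nd4l with 94.2 ± 104, mt-Nd3 with 43.2 ± 36.6 and mt-Atp8 with 4.62 ± 2.36 FPKM, and mt-Atp8 shares bases with the start of mt-Atp6.

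The nuclear members ranged from 0 to 380.3 mean FPKM. The highest were Atp5a1 (380.3 ± 34.8 FPKM) and Atp5b (299 ± 32.3 FPKM), the alpha and catalytic beta subunits of complex V, followed by Cox6a1 (298 ± 50.04 FPKM). Median mean FPKM by complex was 37.7 for complex I, 91.6 for complex II, 84.6 for complex III, 41.6 for complex IV and 40.0 for complex V. The liver isoforms were far above the muscle, lung and testis isoforms of the same subunit: Cox4i1 was at 169.6 ± 28.7 and Cox4i2 at 0.0897 ± 0.112 FPKM, Cox6a1 at the level above and Cox6a2 at 0.0485 ± 0.114 FPKM, Cox7a2 at 92.3 ± 17.98 and Cox7a1 at 0.544 ± 0.538 FPKM, Cox6b1 at 158 ± 37.8 and Cox6b2 at 0.932 ± 0.651 FPKM, and Cox8a at 230.4 ± 81.6 and Cox8b at 0.0334 ± 0.0767 FPKM. Ndufa4 stood at 132 ± 33.6 FPKM and its paralog Ndufa4l2 at 0.978 ± 0.392 FPKM. Of the genes that encode the same c subunit of complex V, Atp5g3 had 142 ± 32.4, Atp5g2 54.6 ± 9.55 and Atp5g1 16.8 ± 5.71 FPKM. Cox7b2, Cox8c and the second Atp5o row were listed at 0.

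**Figure D1:**
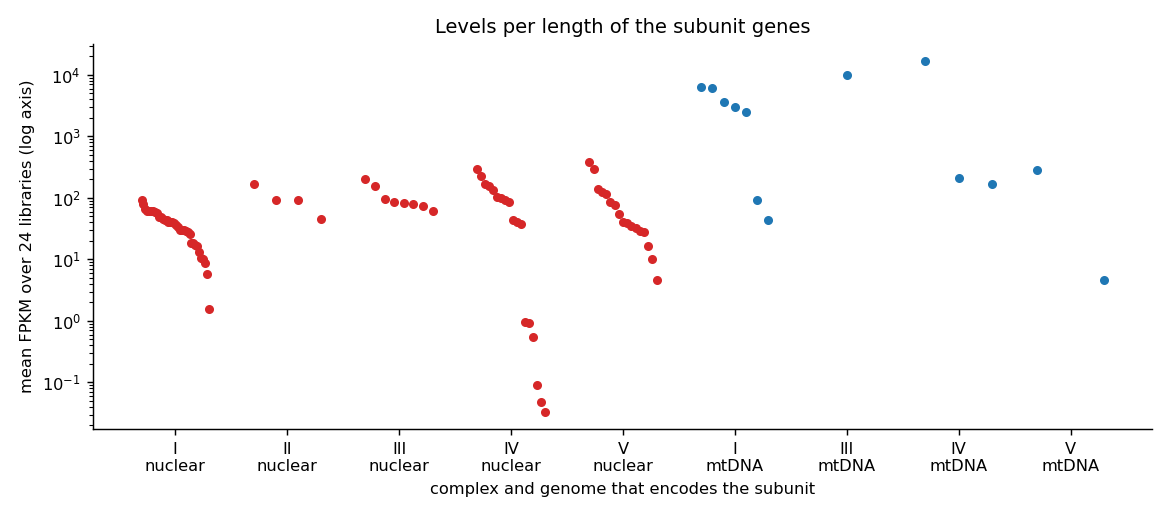
Mean FPKM over 24 libraries (log axis) of each subunit gene with a value above 0, by complex and by the genome that encodes it (nuclear in red, mitochondrial DNA in blue). Most mitochondrially encoded genes of complexes I, III and IV lie above every nuclear gene, while mt-Nd4l, mt-Nd3, mt-Co2, mt-Co3, mt-Atp6 and mt-Atp8 lie within the nuclear range.

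For some of the scarce genes the counts are shared with near-identical copies, since a stretch of chromosome 1 (GRCm38, chromosome 1 from 24611535 to 24616197) repeats part of the mitochondrial chromosome. It holds 7 annotated pseudogenes, each matched here by sequence to 1 mitochondrial gene at 99.7% identity or more. Copies of mt-Co2, mt-Atp6, mt-Co3, mt-Nd4l and mt-Nd3 lie in it whole or but for a few bases, and those of mt-Nd4 and mt-Co1 in part. No annotated copy of mt-Atp8 was found, although on the mitochondrial chromosome it lies between mt-Co2 and mt-Atp6, which are both copied. The counts on the copies came to 82.3% of the counts on mt-Co2, 71.2% for mt-Atp6, 47.1% for mt-Co3, 37.9% for mt-Nd4l and 32.0% for mt-Nd3, against 0.857% for mt-Nd4 and 0.227% for mt-Co1. Values of the first 5 genes therefore depend on how reads with more than 1 place were assigned, which is not given in the sources used here. Results on them that passed the thresholds are given below also with the counts of the copy added. That sum cannot include reads assigned to neither place, so a call that remains with it does not settle the level of the gene. Of the nuclear members, 12 have a transcript copy of at least 99% identity over 100 bases, and for 5 of them (Ndufa12, Atp5g1, Atp5l, Ndufab1 and Atp5h) the copies held at least 10% as many counts as the gene.

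mt-Nd3 (ENSMUSG00000064360, chromosome MT from 9459 to 9806, plus strand) and its copy Gm28438 differ by 1 base in the 345 bases compared. It is T3C, counted from 1 at the 5′ end of mt-Nd3, with the base of mt-Nd3 first. The first 60 bases of both are shown because the result on mt-Nd3 turns on this pair, with the differing base in capitals and in the direction of the gene.
mt-Nd3, chrMT:9459-9518, plus strand: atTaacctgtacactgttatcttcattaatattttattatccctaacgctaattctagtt
Gm28438, chr1:24613060-24613119, minus strand: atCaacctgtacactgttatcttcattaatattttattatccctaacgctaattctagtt

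Summed over the 13 mitochondrially encoded members, the level was lowest and tightest in Rab30L-/- livers. The 4 sums were 52824, 45609, 47558 and 48296 CPM in Rab30L-/- and 71537, 75587, 59515 and 74355 CPM in DKO, so that every DKO library was above every Rab30L-/- library. The DKO and Rab30L-/- means were 70249 ± 7353 and 48572 ± 3053 CPM (SD, n = 4), a difference of 0.53 on the log2 scale. The summed hepatocyte markers did not overlap between these groups either, being lower in DKO, and their part in the result was not tested. In ff;ff the sums were 91077, 55083, 51433 and 47434 CPM, where the first library stood far above the other 3, and in Cpt2L-/- they were 54622, 64466, 55422 and 51944 CPM. These groups overlapped each other and overlapped Rab30L-/- or DKO. Rab30KO livers spread from 50801 to 100116 CPM and Rab30 Ctrl livers from 48592 to 76098 CPM, so the whole-body groups also overlapped. mt-Co1 by itself made up 38.2% to 46.1% of the mitochondrial sum in the 24 libraries.

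The nuclear sum differed between DKO and Rab30L-/- by -0.052 on the log2 scale, and the groups overlapped. It was 11187 ± 536 CPM in ff;ff, 10778 ± 2085 CPM in Rab30L-/-, 9961 ± 1444 CPM in Cpt2L-/-, 10262 ± 187 CPM in DKO, 10325 ± 1061 CPM in Rab30 Ctrl and 9128 ± 1512 CPM in Rab30KO (SD, n = 4 each). All 4 DKO libraries lay from 10109.8 to 10534 CPM, while Rab30L-/- libraries spanned 9077 to 13770.5 CPM, the top value being replicate 3. Replicate 3 of Cpt2L-/- (11993 CPM) and replicate 2 of Rab30 Ctrl (11843 CPM) were likewise the highest of their groups. The ratio of the mitochondrial to the nuclear sum was 5.004, 5.02, 3.45 and 4.98 in Rab30L-/- and 7.02, 7.40, 5.89 and 7.06 in DKO, without overlap. No p-value is given for these sums, whose members were chosen with earlier results of these data known.

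**Figure D2:**
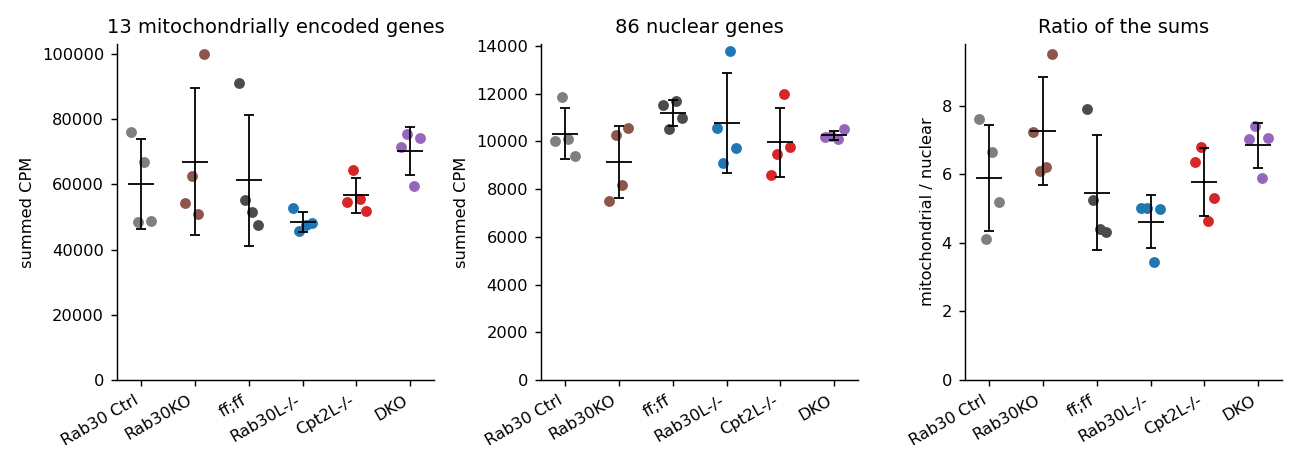
Summed CPM of the 13 mitochondrially encoded genes (left), of the 86 nuclear genes (middle) and their ratio (right) in each of 24 libraries by group, with the mean and SD of 4 libraries in black. The mitochondrial sums of DKO (59515 to 75587 CPM) lie above those of Rab30L-/- (45609 to 52824 CPM), and 1 library each of ff;ff and Rab30KO stands far above its group.

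Gene by gene, a member was counted as risen or fallen when edgeR's quasi-likelihood test gave a Benjamini-Hochberg adjusted p under 0.05 over all genes tested and the change was at least 1.2-fold. In DKO against Rab30L-/-, 12 of 79 nuclear members fell and 0 rose, where 15.8% of all 13292 genes fell and 14.9% rose, while 5 of 13 mitochondrially encoded members rose and 0 fell. The nuclear share of 15.2% that fell is close to the background, while the mitochondrial share of 38.5% that rose is above it, among genes that are transcribed together and are not independent. In a fit over all 24 libraries 1 of these 5, mt-Co1, passed (1 of 13, beside 12.8% of genes higher), so that the share was then not above the background. Without DKO replicate 3, 6 nuclear and 8 mitochondrially encoded members were called, beside 12.7% of genes lower and 12.9% higher in that fit. In Cpt2L-/- against ff;ff, 2 nuclear members and 1 mitochondrially encoded member fell and 0 rose, against a background of 11.9% lower and 11.9% higher. Without Cpt2L-/- replicate 3, 15 of 79 nuclear members fell, beside 10.2% of genes in that fit. In DKO against ff;ff, 10 nuclear members fell (12.7% of those tested) and 0 members rose, against 8.24% lower and 7.86% higher over all genes. That count was 4 in the fit over all 24 libraries (beside 8.98% of genes lower), 4 without DKO replicate 3 (5.8%) and 16 lower with 2 higher without ff;ff replicate 1 (9.86% lower).

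With the Cpt2 floxed alleles deleted in both groups, DKO against Cpt2L-/- called 1 nuclear member lower and 1 mitochondrially encoded member higher, beside 1.33% of all genes lower and 1.38% higher. Rab30L-/- against ff;ff called 1 mitochondrially encoded member lower, beside 0.18% of genes lower and 0.299% higher. Rab30KO against Rab30 Ctrl called 0 members by edgeR and 0 by DESeq2's Wald test, beside 0% of genes lower and 0.022% higher. There 7 of 79 nuclear members had an unadjusted p under 0.05 by edgeR at any fold change. Of all 13656 genes, 302 had such a p together with a change of at least 1.2-fold, which is a narrower count. For the interaction, which sets the effect of Cpt2 loss in livers without Rab30 against its effect in livers with Rab30, 1 mitochondrially encoded member passed an adjusted p of 0.05 on the higher side, beside 2.2% of genes higher and 1.86% lower. The comparisons with ff;ff share its 4 libraries and those with DKO share its 4, so their counts are not independent of each other.

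Medians show the same members without a threshold. The median log2 fold change of the nuclear members was -0.18 in DKO against Rab30L-/-, -0.18 in Cpt2L-/- against ff;ff, -0.22 in DKO against ff;ff, -0.006 in DKO against Cpt2L-/-, 0.02 in Rab30L-/- against ff;ff and -0.26 in Rab30KO against Rab30 Ctrl. For the mitochondrially encoded members these medians were 0.44, -0.05, 0.02, 0.16, -0.38 and 0.21, while the median over all genes tested lay between -0.018 and 0.0022. Cpt2L-/- against ff;ff and DKO against Rab30L-/- share no library. Ndufs8 fell in both, which is 1 of the 2 nuclear members called in the first and 1 of the 12 in the second. The second call was lost in all 8 fits with 1 library left out, and the share of all genes called lower in both was not counted.

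**Figure D3:**
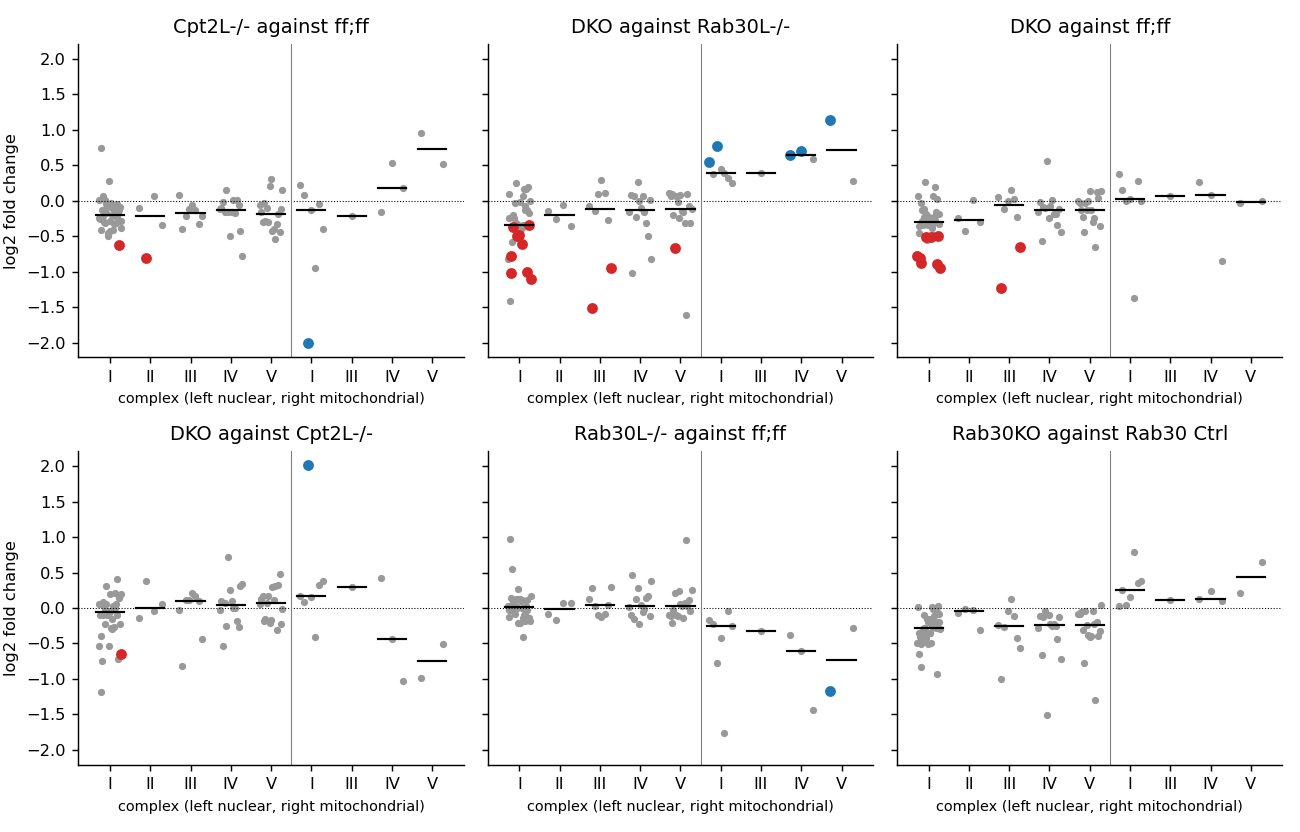
Log2 fold change (vertical axis) of each tested member by complex in the 6 comparisons, nuclear members left and mitochondrially encoded members right of the vertical line. Large colored points passed both thresholds (red nuclear, blue mitochondrially encoded), grey points did not, and bars are medians, which for the mitochondrially encoded members are above 0 in every complex in DKO against Rab30L-/-.

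Among the mitochondrially encoded genes, mt-Co1 was counted at 20602, 19248, 18570.1 and 19675 CPM in Rab30L-/- and at 30732, 33312, 27442 and 32371 CPM in DKO. Every DKO library was higher (log2 fold change 0.64, SE 0.16, adjusted p = 0.00951 by edgeR). Its ff;ff libraries, at 37517, 23418, 22415 and 19914 CPM, overlapped both. mt-Co2 was at 93.2, 82.4, 114 and 81.5 CPM in Rab30L-/- and 159, 149, 139.8 and 164 CPM in DKO, again without overlap (log2 fold change 0.70, SE 0.13, adjusted p = 0.00199). With the counts of its copy added, the log2 fold change of mt-Co2 was 0.70 (adjusted p = 0.00266 by edgeR). mt-Co3 ranged from 51.02 to 89.8 CPM in Rab30L-/- and from 67.9 to 117 CPM in DKO and did not pass (log2 fold change 0.58, SE 0.24), and it was -0.051 with its copy added.

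mt-Atp6 (ENSMUSG00000064357, chromosome MT from 7927 to 8607, plus strand) was the member called lower with loss of Rab30 alone. It had 78.2, 74.5, 96.03 and 59.8 CPM in Rab30L-/- and 195, 183, 185 and 142 CPM in ff;ff, with no overlap (log2 fold change -1.17, SE 0.16, adjusted p = 0.00920 by edgeR). In DKO it had 235, 219, 98.98 and 134 CPM, all above Rab30L-/- (log2 fold change 1.14, SE 0.27, adjusted p = 0.0109). The Cpt2L-/- libraries were the widest, at 289, 279, 654 and 132 CPM, and did not differ from ff;ff past the thresholds (log2 fold change 0.95, SE 0.40, and 0.55 with its copy added). With its copy Gm10925 added, mt-Atp6 was still called in both comparisons, at -1.02 (adjusted p = 0.0396 by edgeR) in Rab30L-/- against ff;ff and 0.97 (adjusted p = 0.00193) in DKO against Rab30L-/-. In whole-body Rab30KO it had 264, 138, 104 and 343 CPM against 269, 103, 205 and 159 CPM in Rab30 Ctrl, which overlapped (log2 fold change 0.22, SE 0.40, and 0.35 with its copy added). A fit over all 24 libraries did not call mt-Atp6 in Rab30L-/- against ff;ff (adjusted p = 0.241 by edgeR).

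mt-Nd1, a core subunit of complex I, was at 5808, 4098, 4538 and 4350.2 CPM in Rab30L-/- and 7131, 7826, 5659 and 7311 CPM in DKO, where 1 DKO library lay below the highest Rab30L-/- library (log2 fold change 0.55, SE 0.17, adjusted p = 0.0324 by edgeR), a call that did not hold in 6 of 8 fits with 1 library left out. mt-Cytb, with 8969.95 to 9952 CPM in Rab30L-/- and 10524 to 14812 CPM in DKO, did not overlap and did not pass (log2 fold change 0.40, SE 0.16, adjusted p = 0.0761 by edgeR). The log2 fold changes of mt-Nd2, mt-Nd4, mt-Nd4l, mt-Nd5, mt-Nd6 and mt-Atp8 in this comparison were 0.38, 0.44, 0.40, 0.32, 0.26 and 0.28, and none of these 6 passed. With its copy added, mt-Nd4l had 0.44. All 13 values were positive, that of mt-Co3 only without its copy, and all 13 were negative in Rab30L-/- against ff;ff, a comparison that shares the Rab30L-/- libraries. mt-Nd6 is transcribed from the other strand than the remaining 12.

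mt-Nd3, a small core subunit of complex I, behaved differently from the others. Its values were 2.30, 4.47, 4.47 and 3.65 CPM in Cpt2L-/-, 24.4, 12.1, 11.3 and 13.01 CPM in ff;ff, 8.34, 7.39, 10.2 and 9.02 CPM in Rab30L-/- and 12.4, 15.9, 12.01 and 20.5 CPM in DKO. Every Cpt2L-/- library was below every library of the other 5 groups, since Rab30 Ctrl began at 10.7 and Rab30KO at 10.4 CPM. By edgeR mt-Nd3 fell in Cpt2L-/- against ff;ff (log2 fold change -2.01, SE 0.29, adjusted p = 2.75e-04), was higher in DKO than in Cpt2L-/- (log2 fold change 2.01, SE 0.23, adjusted p = 0.00115) and in DKO than in Rab30L-/- (log2 fold change 0.77, SE 0.18, adjusted p = 0.00847). It was the only member past the threshold of the interaction by edgeR, where DESeq2's Wald test called 2 mitochondrially encoded members and 1 nuclear member (log2 difference 2.78, SE 0.36, adjusted p = 1.97e-04 by edgeR). A fit over all 24 libraries did not call mt-Nd3 in DKO against Cpt2L-/- or against Rab30L-/-.

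The copy on chromosome 1 moved the other way in the same livers. Gm28438 had 11.2, 14.5, 8.37 and 5.08 CPM in Cpt2L-/- and 6.24, 3.44, 3.54 and 4.04 CPM in ff;ff (log2 fold change 1.203, SE 0.31, adjusted p = 0.0126 by edgeR), and 2.10, 3.46, 2.15 and 3.22 CPM in DKO (log2 fold change -1.85, SE 0.31, adjusted p = 0.0143 for DKO against Cpt2L-/-). The highest ff;ff library was above the lowest Cpt2L-/- library, so these groups overlapped, while all DKO libraries were below Cpt2L-/-. Of the counts on the pair, mt-Nd3 took 17.1% to 41.8% in the Cpt2L-/- libraries and 76.2% to 79.7% in ff;ff, 66.9% to 82.7% in Rab30L-/-, 82.2% to 86.4% in DKO, 80.0% to 87.01% in Rab30KO and 67.5% to 93.03% in Rab30 Ctrl. With both added, the values were 13.5, 18.95, 12.8 and 8.73 CPM in Cpt2L-/- and 30.7, 15.6, 14.9 and 17.04 CPM in ff;ff, which overlapped, and the log2 fold change was -0.51 (SE 0.27, adjusted p = 0.191 by edgeR). The sum likewise missed the thresholds in DKO against Cpt2L-/- (log2 fold change 0.39, adjusted p = 0.338 by edgeR) and in the interaction (log2 difference 1.14, adjusted p = 0.0787 by edgeR), but not in DKO against Rab30L-/- (log2 fold change 0.62, adjusted p = 0.0326 by edgeR). Which base the reads of each liver carry at the T3C position cannot be read from counts, and its part in the result was not tested.

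**Figure D4:**
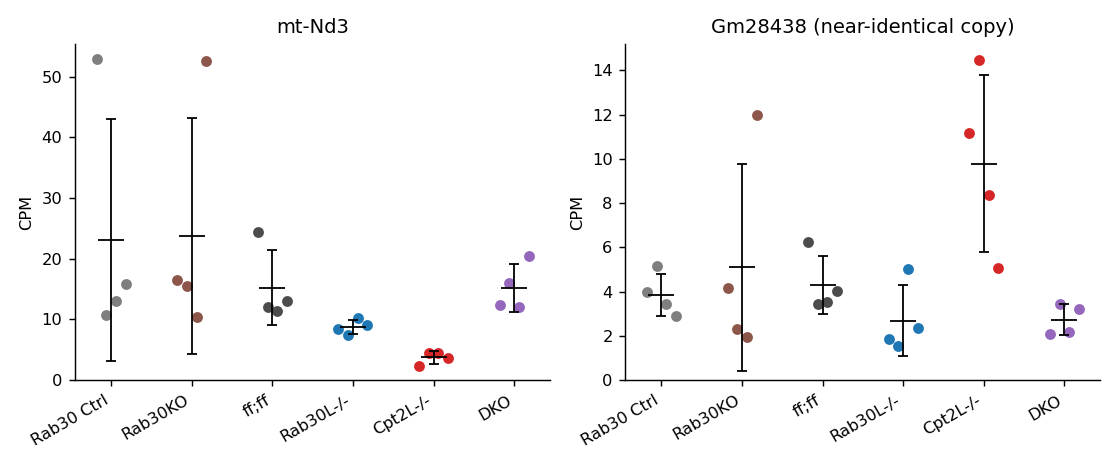
CPM of mt-Nd3 (left) and of its near-identical copy Gm28438 on chromosome 1 (right) in each library by group, with the mean and SD of 4 libraries in black. In Cpt2L-/- mt-Nd3 is below all other libraries (2.30 to 4.47 CPM) while Gm28438 lies at 5.08 to 14.5 CPM, above all DKO libraries (2.10 to 3.46 CPM).

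The other copies gave no such exchange between Cpt2L-/- and ff;ff. Of the counts on the pair, mt-Co2 took 53.7% to 63.9% in Cpt2L-/- and 50.5% to 57.3% in ff;ff, and mt-Nd4l 50.4% to 78.1% and 59.5% to 81.03%, which overlapped. mt-Atp6 took 52.8% to 80.3% in Cpt2L-/-, 49.97% to 60.9% in ff;ff and 42.7% to 50.3% in Rab30L-/-. For mt-Co3 the share ran from 20.9% to 73.7% within the Rab30L-/- group alone.

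Complex I holds 36 of the 79 nuclear members tested. Of these, 9 were lower in DKO against Rab30L-/-, beside 15.8% of all genes, and 8 in DKO against ff;ff, beside 8.24%. In Cpt2L-/- against ff;ff 1 of the 2 nuclear calls was in complex I, and in DKO against Cpt2L-/- the 1 nuclear call was. Its median log2 fold change in these comparisons was -0.34, -0.30, -0.21 and -0.05. The summed level of its nuclear genes was 2075 ± 119 CPM in DKO and 2439 ± 83.7 CPM in ff;ff, groups that did not overlap, and 2355 ± 489.6 CPM in Rab30L-/-, which overlapped DKO.

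Ndufv3 (ENSMUSG00000024038, chromosome 17 from 31520115 to 31531326, plus strand) is an accessory subunit of the flavoprotein fragment that takes electrons from NADH. It had 17.6, 21.2, 20.4 and 20.1 CPM in DKO, 48.3, 33.8, 50.4 and 35.7 CPM in Rab30L-/-, 28.3, 42.3, 39.96 and 41.3 CPM in ff;ff and 26.1, 28.8, 39.2 and 29.3 CPM in Cpt2L-/-. All DKO libraries were below all libraries of these 3 groups. The fall was -1.11 (SE 0.15, adjusted p = 2.88e-04 by edgeR) against Rab30L-/-, -0.94 (SE 0.16, adjusted p = 0.00190 by edgeR) against ff;ff and -0.65 (SE 0.14, adjusted p = 0.0362 by edgeR) against Cpt2L-/-, all log2 fold changes. The last lost its call when any of 6 of the 8 libraries was left out, with values from -0.72 to -0.52. In Cpt2L-/- against ff;ff the log2 fold change of Ndufv3 was -0.29 (SE 0.17) and did not pass.

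Ndufs8 (ENSMUSG00000059734, chromosome 19 from 3908870 to 3912717, minus strand) is a core subunit that carries iron-sulphur clusters of the peripheral arm. It was at 32.03, 36.1, 46.6 and 28.5 CPM in Cpt2L-/-, 57.3, 59.4, 48.7 and 57.8 CPM in ff;ff, 42.9, 42.7, 34.5 and 39.3 CPM in DKO and 49.1, 53.1, 50.5 and 46.9 CPM in Rab30L-/-. Both groups without Cpt2 lay below both of the others. It fell in Cpt2L-/- against ff;ff (log2 fold change -0.63, SE 0.16, adjusted p = 0.0126 by edgeR), in DKO against ff;ff (log2 fold change -0.49, SE 0.13, adjusted p = 0.0259) and in DKO against Rab30L-/- (log2 fold change -0.35, SE 0.11, adjusted p = 0.0387). The first was lost in 1 and the second in 4 of 8 fits with 1 library left out. The last call rests on all 8 libraries, since it was lost without any 1 of them, at log2 fold changes from -0.38 to -0.28.

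Ndufa2, an accessory subunit of the peripheral arm, had 21.5, 19.4, 25.6 and 27.995 CPM in DKO and 48.1, 38.1, 66.3 and 36.5 CPM in Rab30L-/-, without overlap (log2 fold change -1.02, SE 0.19, adjusted p = 0.00210 by edgeR), and 22.03, 46.8, 48.5 and 55.7 CPM in ff;ff, whose first library was within the DKO range. Ndufa2 was also called lower in DKO against ff;ff. That call was lost in 6 of 8 fits with 1 library left out, at log2 fold changes from -1.10 to -0.74. Ndufs6, a zinc-binding accessory subunit, had 15.1, 13.4, 13.2 and 24.8 CPM in DKO and 26.2, 23.1, 57.8 and 23.95 CPM in Rab30L-/-, where 1 DKO library overlapped (log2 fold change -1.002, SE 0.32, adjusted p = 0.0411 by edgeR). Without the third Rab30L-/- library the log2 fold change of Ndufs6 was -0.59 (adjusted p = 0.0519 by edgeR), and the call was also lost without DKO replicate 1, 2 or 3. Ndufs6 was called lower in DKO against ff;ff as well, and lost that call in 4 of 8 such fits, at log2 fold changes from -1.13 to -0.77. Ndufa13, a subunit at the join of the arms, had 38.3, 37.4, 32.6 and 38.2 CPM in DKO, below all of 58.4, 46.7, 94.9 and 48.1 CPM in Rab30L-/- (log2 fold change -0.78, SE 0.20, adjusted p = 0.0129 by edgeR) and below all of 54.3, 63.1, 70.98 and 67.5 CPM in ff;ff (log2 fold change -0.81, SE 0.14, adjusted p = 0.00191).

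The remaining complex I calls were on Ndufa1, Ndufb4, Ndufb8 and Ndufb11, accessory subunits of the membrane arm, and Ndufa6, one of the peripheral arm. Ndufa1 was at 15.3, 14.3, 15.3 and 22.8 CPM in DKO and 23.99, 27.5, 30.2 and 34.02 CPM in ff;ff, with no overlap (log2 fold change -0.78, SE 0.18, adjusted p = 0.0104 by edgeR). Ndufb8, Ndufb11, Ndufb4 and Ndufa6 fell in DKO against Rab30L-/- by 0.61, 0.50, 0.48 and 0.37 on the log2 scale, with adjusted p-values of 0.0160, 0.0271, 0.0190 and 0.0438 by edgeR. When each library was left out in turn, these calls were lost in 0, 4, 1 and 7 of 8 fits. In DKO against ff;ff, Ndufb11 and Ndufb8 fell as well (-0.51 and -0.50 in log2 fold change), with the call lost in 2 and 7 of 8 such fits. Ndufs1, a core subunit that holds iron-sulphur clusters, ranged over 117 to 198 CPM in the 24 libraries and showed no call in any comparison. Ndufa12, singled out after its values were seen, had the lowest log2 fold change of the complex in DKO against Rab30L-/- (-1.42, SE 0.62, adjusted p = 0.128 by edgeR) and a copy with 99.7% as many counts.

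In complex II, which links the citric acid cycle to the respiratory chain, Sdhb (ENSMUSG00000009863, chromosome 4 from 140961203 to 140979193, plus strand), the iron-sulphur subunit, was the member called. It was at 118, 146, 160.4 and 116 CPM in Cpt2L-/- and 315, 200.3, 223 and 213 CPM in ff;ff, with every Cpt2L-/- library lower (log2 fold change -0.80, SE 0.17, adjusted p = 0.00434 by edgeR). DKO libraries, at 165, 180.5, 178 and 186 CPM, were below all ff;ff libraries as well and above all Cpt2L-/- libraries, but passed neither comparison (log2 fold changes -0.43, SE 0.16, and 0.38, SE 0.12). The interaction for Sdhb was 0.55 (SE 0.20, adjusted p = 0.128 by edgeR). Sdha, the flavoprotein that oxidizes succinate, and the membrane anchor Sdhd had log2 fold changes of -0.10 and -0.34 in Cpt2L-/- against ff;ff and -0.15 and -0.36 in DKO against Rab30L-/-, none past the thresholds. The summed level of the complex was 840 ± 37.8 CPM in DKO and 999.9 ± 67.8 CPM in ff;ff, groups that did not overlap. In Cpt2L-/- the sum was 823 ± 83.1 CPM, which overlapped ff;ff.

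In complex III the calls were on 2 small accessory subunits. Uqcr11 (ENSMUSG00000020163, chromosome 10 from 80402997 to 80406830, minus strand) had 19.2, 20.2, 19.8 and 23.6 CPM in DKO, 55.3, 42.04, 98.8 and 36.9 CPM in Rab30L-/-, 24.8, 48.3, 63.3 and 56.4 CPM in ff;ff and 24.4, 27.1, 51.2 and 41.98 CPM in Cpt2L-/-. DKO was below every library of these groups. This was the largest fall of any called member in DKO against Rab30L-/- (log2 fold change -1.51, SE 0.27, adjusted p = 0.00267 by edgeR) and in DKO against ff;ff (log2 fold change -1.23, SE 0.24, adjusted p = 0.00517). Replicate 2 of Rab30 Ctrl held the highest level of the gene, among 26.6, 106, 27.8 and 40.7 CPM in Rab30 Ctrl and 20.4, 35.03, 21.7 and 23.3 CPM in Rab30KO. Uqcrq, which lies near the ubiquinone pocket, had 115, 105, 111 and 110.1 CPM in DKO and 219, 188, 273 and 159.9 CPM in Rab30L-/-, without overlap (log2 fold change -0.95, SE 0.15, adjusted p = 0.00106 by edgeR), and 116, 187, 161 and 225 CPM in ff;ff (log2 fold change -0.65, SE 0.18, adjusted p = 0.0306), a call lost in 6 of 8 fits with 1 library left out.

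Uqcrfs1 and Uqcrc1, which had the most counts of the nuclear genes of complex III, passed in no comparison. Uqcrfs1, the Rieske iron-sulphur protein, had log2 fold changes of 0.11 in DKO against Rab30L-/- and -0.14 in Cpt2L-/- against ff;ff, and Uqcrc1, a core protein, 0.091 and -0.11. Their standard errors were 0.13, 0.14, 0.12 and 0.13.

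No nuclear subunit of complex IV passed in any comparison by edgeR, where 14 of 20 were tested. In DKO against Rab30L-/-, 2 of them had an unadjusted p under 0.05 by edgeR at any fold change. Of all 13292 genes there, 5500 had such a p together with a change of at least 1.2-fold, a narrower count. The median log2 fold change of these subunits ranged from -0.24 in Rab30KO against Rab30 Ctrl to 0.036 in DKO against Cpt2L-/-. Cox4i1, a subunit added early in assembly, had 292 ± 37.8 CPM in ff;ff, 291 ± 60.02 in Rab30L-/-, 267 ± 42.2 in Cpt2L-/- and 264 ± 13.8 CPM in DKO (SD, n = 4). Cox8a had 122, 101, 269 and 115 CPM in Rab30L-/-, of which the third stood apart, and 95.8, 101, 130.04 and 106 CPM in DKO (log2 fold change -0.50, SE 0.28). The supercomplex factor Cox7a2l, at 83.9 to 152 CPM over all libraries, had a log2 fold change of 0.014 (SE 0.15) in Cpt2L-/- against ff;ff. The mitochondrially encoded sum of complex IV, nearly all of it mt-Co1, was 31213 ± 2567 CPM in DKO. It was above every library of Rab30L-/- (19680.1 ± 843 CPM) and of Cpt2L-/- (23287 ± 2125 CPM), by 0.66 and 0.42 on the log2 scale. Gene by gene against Cpt2L-/-, 2 of the 3 genes were lower in DKO (median log2 fold change -0.44, from -1.03 to 0.42), and none was called.

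In complex V, Atp5e, the epsilon subunit of the central stalk, was the nuclear member called. It had 50.1, 45.1, 57.5 and 55.3 CPM in DKO and 79.5, 64.2, 125 and 56.5 CPM in Rab30L-/-, where 1 library of each overlapped (log2 fold change -0.66, SE 0.21, adjusted p = 0.0369 by edgeR). The call was lost in 6 of the 8 fits with 1 library left out, and without the third Rab30L-/- library, which stood at 125 CPM, the log2 fold change was -0.39 (adjusted p = 0.0647 by edgeR). Atp5b and Atp5a1, the most abundant nuclear members, had 1333 ± 33.4 and 1241 ± 82.2 CPM in DKO and 1253 ± 229 and 1142 ± 153 CPM in Rab30L-/- (log2 fold changes 0.073 and 0.10, SE 0.15 and 0.15). The c subunit genes Atp5g1, Atp5g2 and Atp5g3 had log2 fold changes of -0.30, 0.21 and 0.31 in Cpt2L-/- against ff;ff, none past the thresholds. Atp5k, singled out after its values were seen, had the lowest log2 fold change of all nuclear members in DKO against Rab30L-/- (-1.61, SE 0.53, with 10.4, 8.28, 12.5 and 11.3 CPM in DKO and 20.6, 16.5, 74.4 and 16.1 CPM in Rab30L-/-) and missed the threshold (adjusted p = 0.0546 by edgeR). The third Rab30L-/- library stood far above the rest of its group, and the rank of Atp5k without it was not tested.

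**Figure D5:**
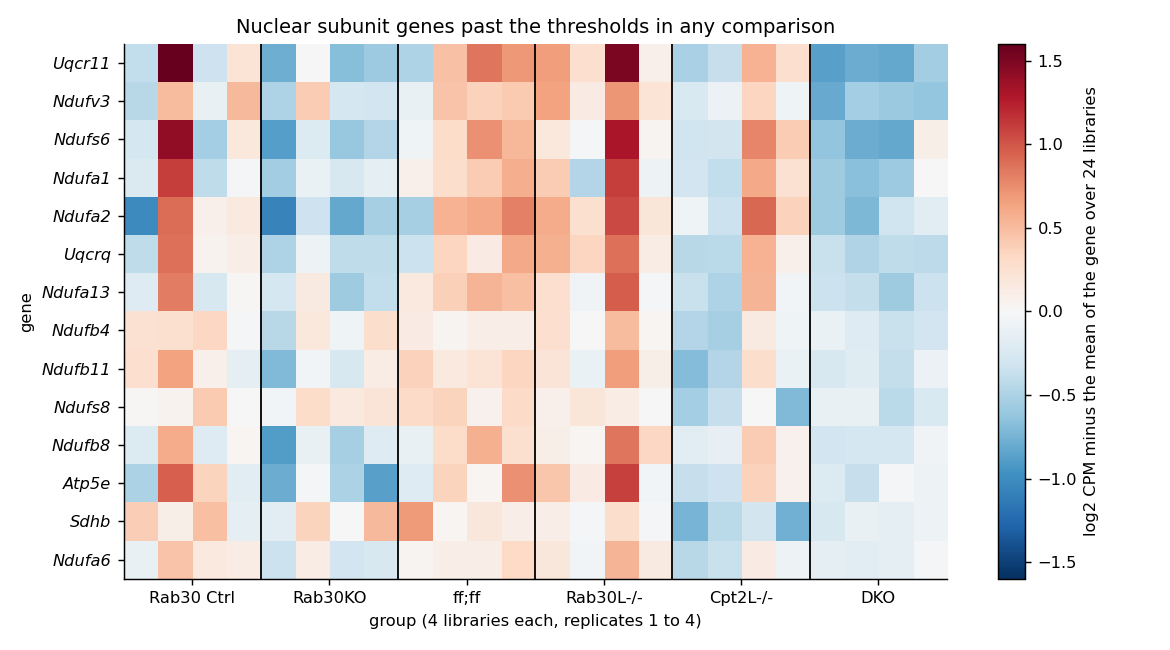
Log2 CPM of the 14 nuclear members that passed the thresholds in any comparison, each less its mean over 24 libraries (color scale), with 4 libraries per group. The DKO columns are low for most genes, and replicate 2 of Rab30 Ctrl, replicate 3 of Rab30L-/- and replicate 3 of Cpt2L-/- are above the mean for all of the called complex III and complex I genes but Ndufs8, which is near it.

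The short nuclear subunits were high or low in the same libraries. The 36 tested nuclear members with a gene length up to 1522.5 bases, the median of the nuclear members, deviated from their means over all libraries by a median of 0.72 (log2) in replicate 3 of Rab30L-/-, 0.56 in replicate 2 of Rab30 Ctrl and 0.44 in replicate 3 of Cpt2L-/-, against 0.34, 0.16 and 0.28 for the 43 longer members. In replicate 1 of Rab30KO the medians were -0.61 and -0.39. Between groups, the short members had a median log2 fold change of -0.29 in DKO against Rab30L-/- and the long members -0.11, while all 1577 short genes tested had -0.21 and all 11715 long genes 0.0057. In Cpt2L-/- against ff;ff these were -0.19 and -0.15 for members and -0.045 for all 1560 short genes. In DKO against ff;ff they were -0.23 and -0.22 for members, -0.17 for all 1631 short genes and -0.0034 for all 11758 long genes. The 10 nuclear members called there had a median length of 935.5 bases and the 69 not called 1718 bases. The part of gene length, or of the libraries that stand apart, in the calls was not tested beyond leaving each library out. Without replicate 3 of Rab30L-/-, 10 fell in DKO in place of 12, beside 13.5% of all genes. The count moved further when a DKO library was left out, down to 6 without DKO replicate 3, beside 12.7% of all genes.

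Promoter sequence was read from RefSeq (GRCm38.p6) as 250 bases before to 50 after each start, for 69 nuclear members in 74 windows. Both strands were searched for GCGCATGCG (NRF1), TCAAGGTCA (ERR), AAGATGGCG (YY1) and CCGGAAGT (ETS), letters linked to factors of respiratory genes. The NRF1 letters were in 10.8% of member windows and 1.75% of all 32851 windows, the YY1 letters in 9.46% and 1.4%, the ETS letters in 6.76% and 3.89%, and the ERR letters in 2.7% and 0.423%. Of the 12 nuclear members lower in DKO against Rab30L-/-, 10 had a window and 2 of these, Uqcr11 and Ndufs6, held any of the motifs. Both windows are shown as those of called members with a match, with the matched letters in capitals on the printed strand, NRF1 and ETS in Uqcr11 and YY1 in Ndufs6.
Uqcr11, chr10:80406772-80407071, minus strand: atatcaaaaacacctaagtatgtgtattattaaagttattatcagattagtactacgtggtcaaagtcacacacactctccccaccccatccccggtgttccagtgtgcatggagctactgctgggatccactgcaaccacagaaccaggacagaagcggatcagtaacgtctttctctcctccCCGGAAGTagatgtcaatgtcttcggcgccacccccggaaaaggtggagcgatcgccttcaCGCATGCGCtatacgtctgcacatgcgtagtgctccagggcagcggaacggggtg
Ndufs6, chr13:73328433-73328732, minus strand: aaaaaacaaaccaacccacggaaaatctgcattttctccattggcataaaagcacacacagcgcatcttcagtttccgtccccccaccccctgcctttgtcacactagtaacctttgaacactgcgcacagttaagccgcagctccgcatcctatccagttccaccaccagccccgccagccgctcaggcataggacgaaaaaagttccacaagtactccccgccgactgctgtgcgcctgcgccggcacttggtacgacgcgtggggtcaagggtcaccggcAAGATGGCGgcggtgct

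Genes that build, feed or regulate the complexes were counted from fixed lists. These counts, and those of the marker lists, stand beside 11.9% of all genes lower and 11.9% higher in Cpt2L-/- against ff;ff, and 15.8% lower and 14.9% higher in DKO against Rab30L-/-. Of the assembly factors of complexes I to V, 1 rose and 5 fell of 48 tested in Cpt2L-/- against ff;ff (median log2 fold change -0.14), and 5 rose and 10 fell of 48 tested in DKO against Rab30L-/- (-0.17). In the first comparison Dmac2, of the distal membrane arm of complex I, fell (log2 fold change -1.32, SE 0.17, adjusted p = 1.03e-04 by edgeR), as did Ndufaf6 (-1.12) and Cmc2 (-0.82), whereas Cox19, a factor of complex IV assembly, rose (1.15). Of the electron carriers and entry points, 4 rose and 1 fell of 12 tested, among them Gpd2, the glycerol phosphate dehydrogenase that feeds ubiquinone (1.01), Chchd4 of the intermembrane space import route (0.90), Coq7 of ubiquinone synthesis (0.81) and Etfdh, which passes electrons from fatty acid oxidation (0.66). In DKO against Rab30L-/-, 2 rose and 2 fell of 12 tested on this list. Cyc1, the cytochrome c1 of complex III, had -0.13 (SE 0.14) in Cpt2L-/- against ff;ff.

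For expression of the mitochondrial genome, 1 rose and 0 fell of 17 tested on the list of transcription and upkeep of its DNA (Top1mt, a topoisomerase, 0.58), and 1 rose and 1 fell of 14 tested on that of its RNA (Fastkd1 -0.69, Rexo2, a nuclease, 0.54). In DKO against Rab30L-/-, 1 rose and 1 fell of 17 tested on the DNA list and 4 rose and 0 fell of 14 tested on the RNA list. Lrpprc, which stabilizes mitochondrial mRNAs, was 199 ± 21.2 CPM in DKO and 138 ± 10.9 CPM in Cpt2L-/- and rose between them (log2 fold change 0.52, SE 0.12, adjusted p = 0.0392 by edgeR). Tfam, which packs mitochondrial DNA, had 0.21 (SE 0.12) in DKO against Rab30L-/-, and Ppargc1a, a coactivator of respiratory genes, -0.70 (SE 0.43) in Cpt2L-/- against ff;ff. On the list of nuclear regulators, 0 rose and 0 fell of 12 tested in Cpt2L-/- against ff;ff and 3 rose and 1 fell of 11 tested in DKO against Rab30L-/-. Of the mitochondrial ribosomal proteins, 4 rose and 3 fell of 77 tested in the first comparison (Mrpl17 0.94, Mrps18b 0.67, Mrps18a 0.62 and Mrpl34 -0.60) and 3 rose and 17 fell of 77 tested in the second.

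On the list of mitochondrial content genes, 2 rose and 0 fell of 21 tested in Cpt2L-/- against ff;ff and 8 rose and 0 fell of 21 tested in DKO against Rab30L-/-, with medians of 0.015 and 0.37. Cs, which encodes citrate synthase, was at 152, 196, 162 and 183 CPM in Cpt2L-/-, 150.03, 135, 217 and 213 CPM in DKO, 66.9, 99.5, 85.2 and 68.3 CPM in ff;ff and 96.7, 68.3, 64.2 and 66.9 CPM in Rab30L-/-. Both groups without Cpt2 were above both others (log2 fold change 1.13, SE 0.16, adjusted p = 2.76e-04 for Cpt2L-/- against ff;ff and log2 fold change 1.25, SE 0.19, adjusted p = 6.92e-04 for DKO against Rab30L-/- by edgeR). Phb, a scaffold of the inner membrane, rose by 0.76 in Cpt2L-/- against ff;ff. Of the nucleotide carriers and uncoupling proteins, 2 rose and 0 fell of 6 tested: Ucp2 (log2 fold change 0.92, SE 0.22, adjusted p = 0.00848 by edgeR) and Ucp3, which had 2.23, 2.11, 2.87 and 5.70 CPM in Cpt2L-/- and 0, 0, 0 and 0.0641 CPM in ff;ff, with no fold given for a group near 0.

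Marker lists of liver cell types were counted in the same comparisons. Of the hepatocyte markers, 0 rose and 4 fell of 8 tested in Cpt2L-/- against ff;ff (Tat, Serpina1a, Alb and Ttr) and 0 rose and 3 fell of 8 tested in DKO against Rab30L-/-. Of the Kupffer cell markers, 1 rose and 3 fell of 8 tested and 1 rose and 6 fell of 8 tested in these comparisons, with summed levels of 221 to 633 CPM in Rab30L-/- and 163 to 218 CPM in DKO, and Cd68 the member that rose. Stellate cell markers had 0 calls in either comparison and summed to 265 to 295 CPM in Rab30L-/- and 294 to 349 CPM in DKO. For the endothelial markers 0 rose and 1 fell of 8 tested and 1 rose and 0 fell of 8 tested, for the bile duct markers, 4 of which averaged under 1 CPM, 0 rose and 1 fell of 4 tested and 0 rose and 1 fell of 3 tested, and for the erythroid and blood markers 0 rose and 4 fell of 6 tested and 1 rose and 1 fell of 6 tested. The part of these markers in the subunit results was not tested.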

How the data were processed

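Members were taken from the deposited count table by biotype, chromosome and symbol. The authors deposited a table of raw counts, whole numbers that were not normalized, and a table of FPKM values, adjusted for length and depth in a way the sources do not state. Novogene made the libraries. The submitters' processing notes name HISAT2, DESeq2 and GRCm38 (mm10) without versions. The counter, its annotation and its use of strand are not given in the sources used here. A table of size-factor normalized counts and 5 tables of the authors' comparisons (log2 fold changes and p-values) were not used.

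Genes were kept by filterByExpr and scaled by TMM. Fits used the 8 libraries of a comparison, or 16 for the interaction, in edgeR 4.0.16 (glmQLFit with robust estimation, glmQLFTest; R 4.3.3), with Benjamini-Hochberg adjustment over all genes tested. Standard errors were taken from the log2 fold change and its F statistic. CPM are TMM-scaled over 24 libraries, and FPKM were used only to compare genes with each other. Copies were found by BLAST against GENCODE M21 transcripts, whose coordinates 93 of 99 members share. The fits were tested on simulated counts. Every pair of replicates differed beyond counting noise. The study drew mice from several litters, but the labels assign no mouse to a litter, and p-values measure the spread between these livers. Alternatives were DESeq2 size factors, library sizes and scaling without mitochondrial genes, DESeq2 1.42.0's Wald test, 1 fit over 24 libraries, no filter, no fold threshold and each library left out. Adding the chromosome 1 copies was chosen after seeing the data.

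The members and lists were chosen with earlier results of these data known. The text names all mitochondrially encoded members, up to 12 nuclear members past the thresholds with the largest change per comparison, the tissue isoforms, the 2 nuclear members per complex with the highest mean CPM, and up to 4 changed genes per list in Cpt2L-/- against ff;ff, with Ppargc1a, Tfam, Lrpprc, Cs, Cyc1, Rab30 and Cpt2, except for 1 item that is not reported here.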

Additional observations from a re-analysis of the deposited data

Results flagged for a closer look

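Over 19 members and the summed CPM of the nuclear and of the mitochondrially encoded members, 126 groups of 4 libraries were examined, and 11 had a library far from the other 3 by Dixon's criterion, where chance flags about 1 group in 20. For mt-Nd3 the highest library stood apart in Rab30 Ctrl (52.9 CPM), Rab30KO (52.6 CPM) and ff;ff (24.4 CPM). Highest libraries also stood apart for Ndufa1 in Rab30 Ctrl (49.1 CPM) and DKO (22.8 CPM), for Ndufb8 in DKO (30.1 CPM), for Ndufs6 in Rab30L-/- (57.8 CPM) and DKO (24.8 CPM) and for Ndufs8 in Rab30 Ctrl (62.2 CPM). Lowest libraries stood apart for Ndufa13 in DKO (32.6 CPM) and Ndufv3 in ff;ff (28.3 CPM).

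The change of mt-Nd3 with loss of Cpt2 differed between livers with and without Rab30, by an interaction of 2.78 on the log2 scale (adjusted p = 1.97e-04 by edgeR). With the counts of its copy Gm28438 added, the interaction was 1.14 (adjusted p = 0.0787 by edgeR).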

How the results depend on the processing

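No paired analysis was possible because the labels give no replicate numbers shared across groups. No alternative turned the direction of a fold change that had passed the thresholds, although adding the chromosome 1 copies took mt-Co3, which had not passed, from 0.58 to -0.051 (log2) in DKO against Rab30L-/-, and the summed CPM moved by less than 1 SD under every alternative tried. The scalings moved the median of all genes by under 0.1 (log2). The cause of each change in counts below was not tested. In Cpt2L-/- against ff;ff, nuclear calls went from 2 to 4 with DESeq2 size factors or its Wald test (beside 12.3% and 10.6% of all genes lower), and mitochondrially encoded calls from 1 to 0 with the chromosome 1 copies added. In the fit over all 24 libraries, calls in DKO against Rab30L-/- went from 5 to 1 (mitochondrially encoded, beside 12.8% higher), in DKO against ff;ff from 10 to 4 (nuclear, beside 8.98% lower), in DKO against Cpt2L-/- from 1 to 0 (each kind) and in Rab30L-/- against ff;ff from 1 to 0 (mitochondrially encoded). In DKO against Cpt2L-/-, the Wald test gave 3 calls of each kind (beside 3.23% of genes lower and 3.49% higher), no filter gave 3 nuclear calls (beside 1.4% lower), and adding the copies left 0 mitochondrially encoded calls. The Wald test called 2 mitochondrially encoded members in Rab30L-/- against ff;ff (beside 0.806% of genes lower), and 2 and 1 nuclear in the interaction (beside 3.65% higher and 3% lower), where no filter gave 1 nuclear call and adding the copies left 0.

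With each library left out in turn, nuclear calls ranged from 1 to 15 in Cpt2L-/- against ff;ff (15 without Cpt2L-/- replicate 3, 4 without ff;ff replicate 3 and 1 without Cpt2L-/- replicate 4, beside 10.2%, 12.6% and 8.77% of genes lower), from 6 to 13 in DKO against Rab30L-/- (6 without DKO replicate 3 and 7 without DKO replicate 1 or 2, beside 12.7%, 12% and 12.8%), from 4 to 18 in DKO against ff;ff (18, of which 2 were higher, without ff;ff replicate 1, 4 without DKO replicate 3, 5 without DKO replicate 1 or ff;ff replicate 4, 6 without DKO replicate 2 or ff;ff replicate 2, beside 5.32% to 9.86% of genes lower in these fits), from 0 to 2 in DKO against Cpt2L-/- and from 0 to 1 in the interaction. Mitochondrially encoded calls ranged from 1 to 2 in Cpt2L-/- against ff;ff (2 without ff;ff replicate 1 or Cpt2L-/- replicate 4), from 4 to 8 in DKO against Rab30L-/- (8 without DKO replicate 3, beside 12.9% of genes higher), from 0 to 1 in DKO against ff;ff (1 without ff;ff replicate 1 or 4) and from 1 to 2 in the interaction (2 without ff;ff replicate 4). In DKO against Rab30L-/-, the calls of mt-Atp6, mt-Co1, mt-Co2, mt-Nd3, Ndufa13, Ndufa2, Ndufb8, Ndufv3, Uqcr11 and Uqcrq held in all 8 of these fits, while Ndufs8 lost its call in 8, Ndufa6 in 7, Atp5e and mt-Nd1 in 6, Ndufb11 and Ndufs6 in 4 and Ndufb4 in 1.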
